A study of Homo sapiens with 12 samples.

Results

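The genes described here encode the protein subunits of the cytosolic ribosome. They were taken from the gene count table by symbol alone, as RPL or RPS followed by a number with an optional A or X, together with RPLP0, RPLP1, RPLP2 and RPSA. This gave 77 of 60591 genes, 46 for the large subunit and 31 for the small subunit, and all 77 passed the filter on low counts that left 19108 genes for testing.

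RNA was collected from PC9 and H1650, established human lung adenocarcinoma lines that carry an activating deletion in the epidermal growth factor receptor gene (EGFR), and each line is a single model. Untreated cells in 0.1% DMSO were taken at 0 h (T0), and treated cells were taken after 36 h with either 10 μM erlotinib, a first-generation EGFR inhibitor, or 0.1 μM osimertinib, a third-generation inhibitor that binds the receptor covalently. Each of the 6 groups had 2 libraries of polyadenylated RNA, and the lines carried no engineered change. The question behind the libraries was whether drug-induced expression could account for the unequal lethality of these inhibitors in the lines. No vehicle library at 36 h was analysed here, so a change from T0 includes the time in culture, and the drug doses differ, so differences between the drugs include dose. The study calls the libraries of a group biological replicates, while the labels do not say whether they came from separate cultures, and the p-values measure the spread between these libraries.

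A cytosolic ribosome joins a small subunit, which reads the mRNA, and a large subunit, which forms peptide bonds. Most of its proteins are needed in equal amounts, and the mRNAs of ribosomal proteins are among the most abundant in growing cells. Most of these mRNAs begin with a terminal oligopyrimidine (TOP) tract, a C followed by a run of C or T letters at the transcription start. This tract lets the mTOR kinase regulate their translation through LARP1 and the 4E-BP proteins. EGFR signals to mTOR through PI3K and AKT, and MYC raises transcription of many of these genes.

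The start of a member is shown because the pyrimidine run is what most members share and the choice by symbol did not use. Of the 77 members, 62 matched a RefSeq promoter table (GRCh38.p14), which holds 300 bases per gene, from 250 before to 50 after the annotated start. A run of at least 7 C or T letters on the sense strand lay within 20 bases of the start in 54 of the 62 (87.1%), against 25.6% of the 35116 promoters in the table. A run of at least 10 was found in 45 (72.6%), against 8.52%, and the longest run had a median of 11 letters in members and 5 over all promoters. The windows of 30 bases below run from 10 before the start to 20 from it, with the longest run in capitals. In PC9, RPL13A and RPS27 rose with both drugs, and RPS10, RPL36A, RPL26 and RPS26 were lower with both. RPLP0 and RPS6 moved in opposite directions in PC9 with the 2 drugs.
RPL13A, chr19:49487598-49487627, plus strand: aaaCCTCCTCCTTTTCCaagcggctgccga
RPS27, chr1:153990752-153990781, plus strand: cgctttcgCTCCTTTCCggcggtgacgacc
RPS10, chr6:34426050-34426079, minus strand: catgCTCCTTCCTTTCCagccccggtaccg
RPL36A, chrX:101391001-101391030, plus strand: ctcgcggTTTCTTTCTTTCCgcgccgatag
RPL26, chr17:8383174-8383203, minus strand: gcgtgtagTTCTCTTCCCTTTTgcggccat
RPS26, chr12:56041908-56041937, plus strand: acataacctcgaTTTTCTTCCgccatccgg
RPLP0, chr12:120201092-120201121, minus strand: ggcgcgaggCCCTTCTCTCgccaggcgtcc
RPS6, chr9:19380217-19380246, minus strand: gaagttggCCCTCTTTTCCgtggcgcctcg

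All 8 windows, which were picked for display, hold a run of at least 7 letters, in members that rose and in members that fell. Other members named below lack one, with a longest run of 4 letters in RPL13 and RPL15, 5 in RPL3 and 6 in RPL11. Whether the run goes with the direction of change was not tested. Among motifs searched on both strands of the 300 bases, CTTCCG, the core bound by ETS factors such as GABPA, was found in 39 members (62.9%) and in 19.5% of all promoters. ATGGCGG, a YY1 core, was found in 12 members (19.4%) and 5.55% of promoters, and GGGCGG, the SP1 core, in 34 members (54.8%) and 45.0%. The MYC E-box CACGTG was found in 3 members (4.84%) against 7.26%, and TATAAA in 5 (8.06%) against 11.5%. These are matches of letters and were not tested as binding sites.

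The deposited values are counts of reads per gene. Totals per library ran from 17961765 to 26346187, and mitochondrial genes took 4.36 to 7.20% of them. Epithelial keratins and EPCAM were high in both lines, while the alveolar markers NKX2-1, NAPSA and SFTPB did not exceed 1.85 CPM (the count relative to the scaled library total) in any library. The 11 markers of leukocytes, fibroblasts and endothelium summed to between 11.6 and 52.0 CPM per library, most of it COL1A1. Replicates of every group differed by more than sampling noise.

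The members together took between 3.10 and 5.14% of all counts. In untreated PC9 the share was 4.37 and 4.30% in the 2 libraries, with erlotinib it was 5.14 and 5.13%, and with osimertinib 3.79 and 4.14%. The erlotinib libraries were the highest of the 12 and the osimertinib libraries lay below both T0 libraries. In untreated H1650 the share was 3.53 and 3.48%, with erlotinib 3.35 and 3.27%, and with osimertinib 3.10 and 3.12%. Each H1650 group lay apart from the others in this order, and every H1650 library lay below every PC9 library. Relative to T0 of the same line, the mean share was 1.18 times as large with erlotinib (5.13% ± 0.00943, SD, n = 2, against 4.34% ± 0.0542) and 0.915 times with osimertinib (3.97% ± 0.248) in PC9. In H1650 the corresponding ratios were 0.944 (3.31% ± 0.0574 against 3.50% ± 0.0395) and 0.887 (3.11% ± 0.0148). In bulk RNA a smaller share from fewer cells of a kind and from less RNA per cell cannot be told apart. Large-subunit genes took 1.61 times the counts of small-subunit genes in untreated PC9, 1.74 times with erlotinib and 1.76 times with osimertinib, and in H1650 the ratios were 1.66, 1.72 and 1.73.

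**Figure D1:**
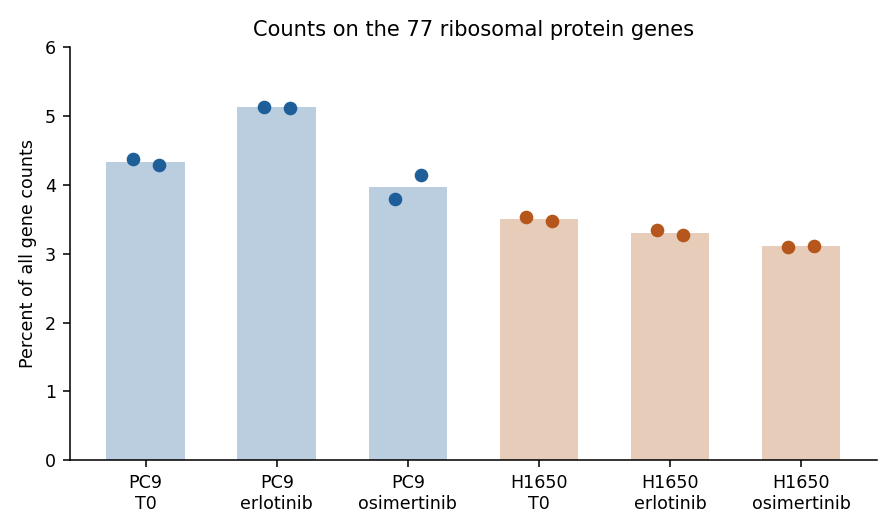
Percent of all gene counts that fell on the 77 cytosolic ribosomal protein genes (vertical axis) in each of the 12 libraries, by cell line and treatment, with points for libraries and bars for the mean of 2. PC9 with erlotinib was highest at 5.13% and H1650 with osimertinib lowest at 3.11%.

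Levels are given below as CPM after TMM scaling, and differences as log2 fold changes with their standard error from edgeR's quasi-likelihood test over all 19108 genes. A gene was called at a Benjamini-Hochberg adjusted p under 0.05, and "rose" and "fell" are used of called genes only. Per kilobase of the exon length in the count table, RPS2, at the mRNA entry side of the small subunit, had the highest mean level over the 12 libraries (749 CPM per kb), followed by RPL8, which lies near the peptidyl transferase centre (665), and RPL13A (589). RPS10 and RPL36A had the lowest, at 0.868 and 1.25 CPM per kb, and the median member was at 135 CPM per kb. Without division by length the highest mean levels were those of RPS2 (1789 CPM), RPLP0 (1497 CPM) and RPL8 (1436 CPM), so the order depends on the annotated length.

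In PC9 with erlotinib, 34 of 77 members rose and 11 fell. Over all tested genes 32.7% rose and 29.1% fell in this comparison, so a somewhat larger share of members than of all genes rose and a smaller share fell. The median member change was 0.14 on the log2 scale, against 0.07 for all tested genes and −0.13 for the 2286 other genes with a mean of at least 100 CPM. Of these 2286 genes, 33.7% rose and 47.9% fell. Of the large subunit 22 of 46 rose and 5 fell, and of the small subunit 12 of 31 rose and 6 fell. RPL13A, a large-subunit protein that also silences inflammatory mRNAs when released from the ribosome, had the largest rise. Its level was 1145 and 1138 CPM at T0, 2016 and 1971 CPM with erlotinib, and 1464 and 1583 CPM with osimertinib. The groups did not overlap, with erlotinib highest and T0 lowest, and the change with erlotinib was 0.80 ± 0.07 (SE, n = 2 per group, edgeR adjusted p = 4.5e-11). RPS27, a zinc-binding small-subunit protein, followed the same order, with 258 and 244 CPM at T0, 374 and 432 with erlotinib, and 307 and 367 with osimertinib. Its change with erlotinib was 0.69 ± 0.09 (edgeR adjusted p = 2.4e-07). RPL10, which joins the large subunit late in its maturation, went from 1454 and 1485 CPM to 1988 and 2078 CPM, a change of 0.47 ± 0.07 (edgeR adjusted p = 8.7e-07). RPL28 rose by 0.48 ± 0.09 on the same scale. Both erlotinib libraries lay above both T0 libraries for each of these 4 genes. The count of members that rose was 21 without each PC9 T0 library in turn and 19 without PC9 erlotinib replicate 2, and 7 members fell without PC9 T0 replicate 1. With a minimum change of 1.5-fold added, only 2 of the 34 that rose and 5 of the 11 that fell remained.

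**Figure D2:**
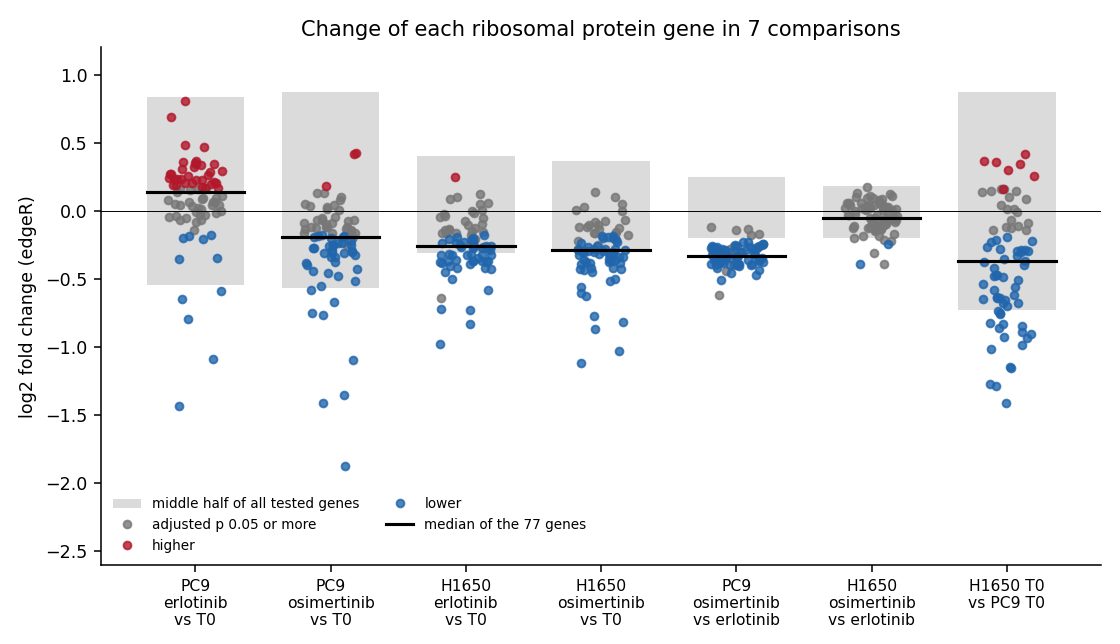
Log2 fold change of each of the 77 members (points) in 7 comparisons, with members called higher in red, called lower in blue and uncalled in grey. The black line is the median member and the grey band the interquartile range of all tested genes. In PC9 with osimertinib against erlotinib all 77 points lie below 0, around a median of −0.33.

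Several of the members that fell most in PC9 with erlotinib were among the least abundant, and their values are given further on with the counts behind them. RPS26, at the mRNA exit channel, was far more abundant and fell from 210 and 216 CPM to 135 and 138 with erlotinib and to 119 and 132 with osimertinib. The changes were −0.65 ± 0.08 and −0.76 ± 0.08 (edgeR adjusted p = 1.9e-08 and 8.8e-10).

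In PC9 with osimertinib, 3 members rose and 41 fell, against 32.7% and 28.7% of all tested genes. The median member change was −0.19, against 0.06 for all tested genes and −0.09 for the other genes of at least 100 CPM. Of these other genes, 35.7% rose and 44.5% fell. Of the large subunit 21 of 46 fell and of the small subunit 20 of 31. The 3 that rose were RPS27 (0.43 ± 0.09, edgeR adjusted p = 0.00022), RPL13A (0.42 ± 0.07, 6e-06) and RPL15 (0.19 ± 0.07, 0.025). RPSA, the laminin-receptor homologue of the small subunit, was at 1167 and 1232 CPM at T0, 1042 and 1085 with erlotinib and 774 and 864 with osimertinib. It stepped down without overlap, by −0.17 ± 0.07 with erlotinib (edgeR adjusted p = 0.029) and −0.55 ± 0.07 with osimertinib (6.5e-08). RPS2 went from 2405 and 2234 CPM to 2118 and 1968 with erlotinib and to 1565 and 1679 with osimertinib, and fell with both drugs (−0.18 ± 0.08 and −0.52 ± 0.08, edgeR adjusted p = 0.044 and 1.8e-06). The count of members that fell was 27, and that of members that rose 6, without PC9 osimertinib replicate 1, in which 71 of 77 members had a lower CPM than in replicate 2. COL1A1, a fibroblast collagen gene, was at 36.6 and 44.7 CPM in the PC9 osimertinib libraries against 18.3 to 24.1 CPM in the other PC9 libraries. The other 10 markers of other cells summed to at most 7.25 CPM there, and the part of this in the result was not tested.

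Set directly against erlotinib in PC9, osimertinib gave lower levels across the family. All 77 members had a log2 difference below 0, from −0.62 to −0.12 with a median of −0.33, where all tested genes had a median of 0.00 and the other genes of at least 100 CPM 0.05. At the threshold 65 fell and 0 rose, against 6.41% and 10.1% of all tested genes, with 38 of 46 from the large and 27 of 31 from the small subunit. Of the other genes of at least 100 CPM, 9.14% fell and 22.9% rose. In 74 of 77 members both osimertinib libraries lay below both erlotinib libraries, which held for 24.3% of all tested genes. The interquartile range of the difference was 0.104 over members and 0.444 over all tested genes. Among proteins with roles beyond the core ribosome, RPS6, the substrate of the S6 kinases, was at 636 and 654 CPM with erlotinib and 450 and 505 with osimertinib, with 564 and 560 at T0. RPLP0, the base of the stalk that recruits elongation factors, was at 2016 and 2024 CPM with erlotinib and 1475 and 1588 with osimertinib, with 1742 and 1717 at T0. For both genes the erlotinib libraries lay above T0 and the osimertinib libraries below it. RPS6 differed between the drugs by −0.43 ± 0.07 (edgeR adjusted p = 3.3e-05) and RPLP0 by −0.40 ± 0.07 (6.4e-05). RPL36A had the lowest value (−0.62 ± 0.24, edgeR adjusted p = 0.084), RPL17 followed (−0.51 ± 0.15, 0.018), and the difference was smallest for RPS26 (−0.12 ± 0.08, 0.34), RPL3 (−0.14 ± 0.07, 0.18) and RPL22 (−0.14 ± 0.08, 0.28). The count of members that fell was 34 without PC9 osimertinib replicate 1 and at most 69 without any other library. With a minimum of 1.5-fold no member remained.

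**Figure D3:**
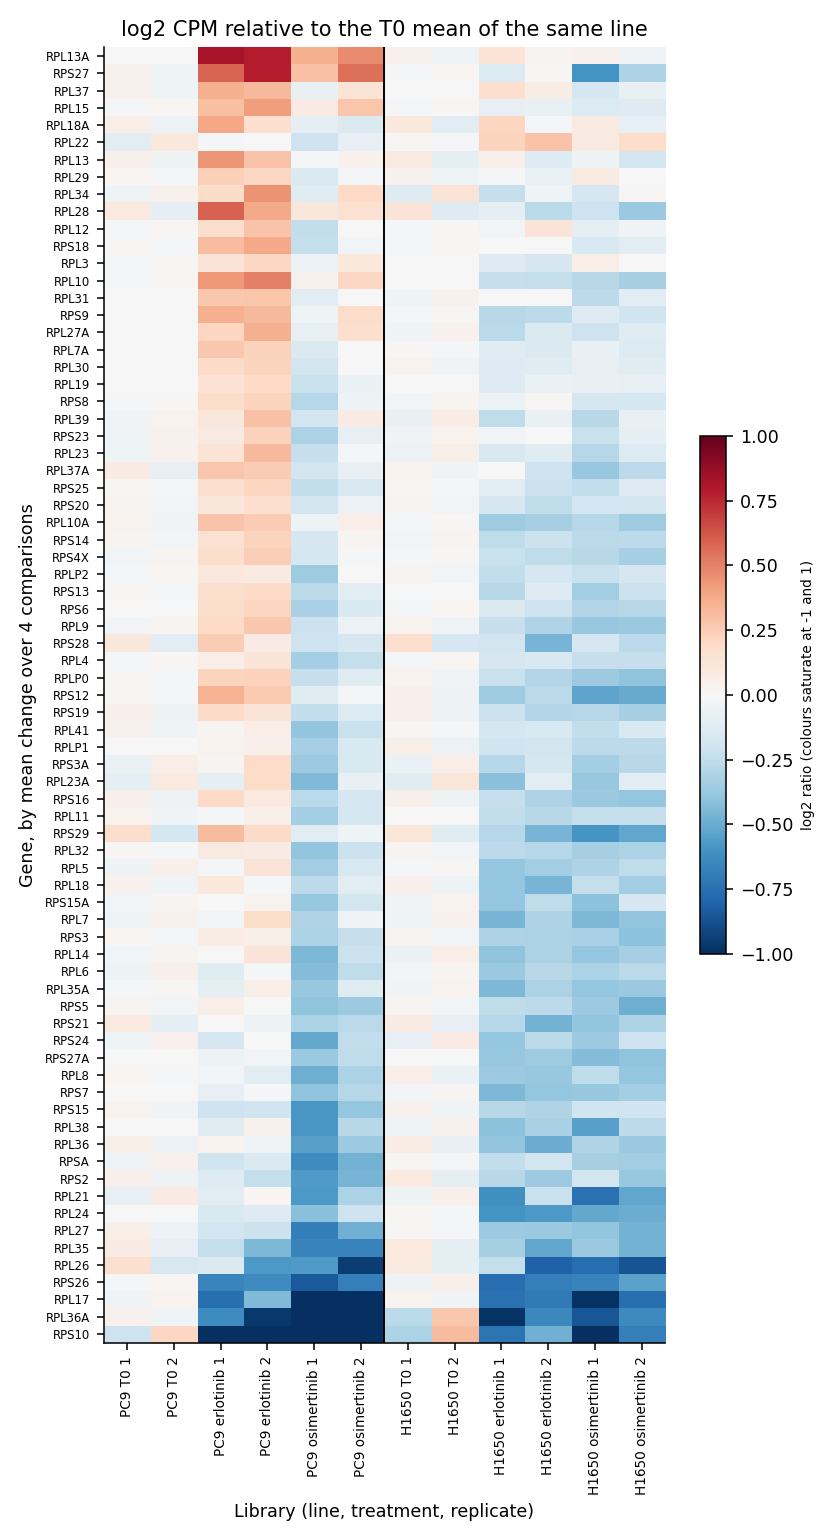
Log2 CPM of 75 of the 77 members (rows, from the highest mean change shown, RPL13A, to the lowest shown, RPS10) in the 12 libraries (columns), relative to the T0 mean of the same line. Colours saturate at −1 and 1. PC9 with erlotinib is mostly on the higher side, and most rows of the H1650 drug libraries are on the lower side.

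In H1650 members fell with each drug, in comparisons that share the T0 libraries. With erlotinib 1 member rose and 48 fell, against 18.0% and 18.5% of all tested genes, and with osimertinib 0 rose and 54 fell, against 17.8% and 17.9%. The median member change was −0.26 and −0.29, while the median of all tested genes was 0.01 and 0. Of the 2286 other genes of at least 100 CPM, 19.6% rose and 42.7% fell with erlotinib, and 23.1% and 37.6% with osimertinib. Their medians were −0.13 and −0.09, so abundant genes fell more often than all tested genes. Falls were found in 24 of 46 large-subunit and 24 of 31 small-subunit members with erlotinib, and in 29 and 25 with osimertinib. RPL5 and RPL11 bind MDM2 outside the ribosome together with the small ribosomal RNA of the large subunit. RPL5 was at 477 and 483 CPM at T0, 367 and 377 with erlotinib, and 388 and 402 with osimertinib, and RPL11 at 491 and 495, 415 and 408, and 418 and 417 CPM. Neither gene overlapped between T0 and either drug, and the changes were −0.37 ± 0.07 and −0.28 ± 0.07 for RPL5 (edgeR adjusted p = 0.0002 and 0.0031) and −0.26 ± 0.07 and −0.24 ± 0.07 for RPL11 (0.0035 and 0.0075). In PC9 neither passed the test with erlotinib (0.06 ± 0.07 and 0.02 ± 0.07), and both fell with osimertinib (−0.25 ± 0.07 and −0.26 ± 0.07). The member that rose was RPL22, a dispensable large-subunit protein that binds viral small RNAs, at 97.3 and 95.8 CPM at T0 and 112 and 117 with erlotinib (0.25 ± 0.08, edgeR adjusted p = 0.013). With osimertinib it was at 103 and 110 CPM (0.14 ± 0.08, 0.19). Scaled by library totals alone, which moved the median of all genes by 0.13 in the erlotinib comparison, 4 members rose and 24 fell there.

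The drugs differed less in H1650. Against erlotinib, osimertinib gave 2 members that fell and 0 that rose, where 3.73% and 5.02% of all tested genes did, and the median member difference was −0.05. The 2 were RPS27, at 256 and 284 CPM with erlotinib and 185 and 226 with osimertinib (−0.39 ± 0.09, edgeR adjusted p = 0.0058), and RPL37, named after its values were seen, at 461 and 431 against 365 and 389 CPM (−0.24 ± 0.07, 0.038). The osimertinib libraries lay below the erlotinib libraries for both. RPL3, near the peptidyl transferase centre, and RPL18 had the highest values (0.18 ± 0.07 and 0.13 ± 0.07, edgeR adjusted p = 0.12 and 0.33), and without H1650 osimertinib replicate 1 no member was called. The test of the difference between the lines in this drug-against-drug comparison, added after the data were seen, called 17 members higher in H1650 and 0 lower, against 1.81% and 3.40% of all tested genes, with a median of 0.29. RPL5 (0.40 ± 0.10, edgeR adjusted p = 0.018) and RPS6 (0.33 ± 0.10, 0.045) were among the 17. This count was the least stable of all, at 1 without PC9 osimertinib replicate 1 and 37 without PC9 osimertinib replicate 2. It was 11 without each PC9 T0 library in turn, 7 or 9 without a PC9 erlotinib library, 5 or 4 without an H1650 erlotinib library, and 5 or 7 without an H1650 osimertinib library.

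The response to erlotinib was then compared between the lines, with the value in PC9 subtracted from that in H1650. It was lower in H1650 for 56 members and higher for 0, against 19.8% and 21.1% of all tested genes, with a median of −0.35 over members and −0.03 over all tested genes. Of the 2286 other genes of at least 100 CPM, 28.5% were lower and 33.8% higher, with a median of 0.04. Of the large subunit 34 of 46 and of the small subunit 22 of 31 were called. Against T0, 12 members rose in PC9 and fell in H1650 with erlotinib, as did 2.43% of all tested genes. They were RPL10, RPL10A, RPL27A, RPL9, RPLP0, RPS12, RPS13, RPS14, RPS29, RPS4X, RPS6 and RPS9. The largest differences were those of RPS27 (−0.74 ± 0.13, edgeR adjusted p = 3.2e-05), RPL13A (−0.72 ± 0.10, 6.1e-07) and RPL10 (−0.70 ± 0.10, 8.6e-07). In H1650, RPL13A was at 1251 and 1172 CPM at T0, 1334 and 1237 with erlotinib, and 1248 and 1185 with osimertinib, and these groups overlapped. RPL10 was at 609 and 609 CPM at T0 in H1650, 519 and 517 with erlotinib, and 503 and 485 with osimertinib, so both drugs lay below T0 there (−0.23 ± 0.07 and −0.30 ± 0.07, edgeR adjusted p = 0.0083 and 0.00085). RPS27 was at 276 and 285 CPM at T0 in H1650, overlapping with erlotinib and above osimertinib (−0.45 ± 0.09, edgeR adjusted p = 0.00031).

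With osimertinib the responses of the lines differed for fewer members. The difference was lower in H1650 for 8 and higher for 3, against 20.5% and 21.5% of all tested genes, with a median of −0.04 against −0.03. The 8 were RPL10, RPL10A, RPL13A, RPL15, RPL28, RPS12, RPS27 and RPS29. RPS27 had the lowest value (−0.87 ± 0.13, edgeR adjusted p = 2.9e-06), and RPL10 and RPL13A followed the same direction (−0.43 ± 0.10 and −0.41 ± 0.10, 0.00058 and 0.00099). RPL22 (0.29 ± 0.11, edgeR adjusted p = 0.042) and RPS15 (0.28 ± 0.10, 0.027) were among the 3 higher. Without PC9 osimertinib replicate 1 the difference was lower in 16 members, without PC9 T0 replicate 2 in 5, and the number that were higher was 5 without PC9 osimertinib replicate 2 and 1 without H1650 osimertinib replicate 1.

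Across the 77 genes the changes in PC9 and H1650 were correlated with erlotinib (Pearson r = 0.80, Spearman rho = 0.73) and with osimertinib (r = 0.78, rho = 0.61). The comparisons share no library, but genes are not independent replicates and all members passed through the same counting. Without the 5 members of lowest CPM, a choice made after seeing the data, the values over 72 genes were r = 0.65 and rho = 0.67 with erlotinib, and r = 0.48 and rho = 0.52 with osimertinib. Over all 19108 tested genes they were r = 0.31 and rho = 0.42 with each drug, and whether members differ from other genes in this was not tested.

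**Figure D4:**
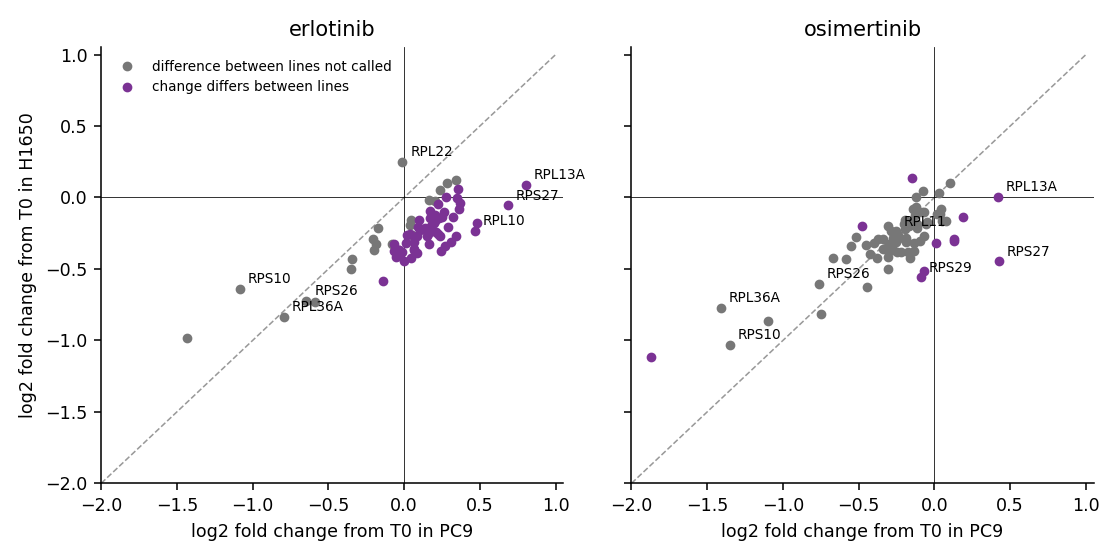
Log2 fold change from T0 in PC9 (horizontal) against H1650 (vertical) for each member, with erlotinib on the left and osimertinib on the right. Purple marks the members whose change differed between the lines at the threshold, 56 and 11 respectively, and the dashed diagonal is equality.

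Further members are given with each comparison's own values, since the comparisons within a line share their T0 libraries. In H1650, RPS26 went from 208 and 223 CPM to 127 and 134 with erlotinib and 135 and 148 with osimertinib. Every drug library of either line lay below every T0 library, and the 4 changes were between −0.60 and −0.76. RPSA was at 685 and 672 CPM at T0 in H1650, 572 and 596 with erlotinib and 540 and 532 with osimertinib (−0.22 ± 0.07 and −0.34 ± 0.07, edgeR adjusted p = 0.014 and 0.00025). The stalk protein RPLP0 went from 1458 and 1387 CPM to 1221 and 1158, and to 1105 and 1074 in H1650 (−0.26 ± 0.07 and −0.38 ± 0.07, edgeR adjusted p = 0.0028 and 3.6e-05). Its partner RPLP1 fell in 3 of the 4 comparisons, with PC9 with erlotinib at 0.04 ± 0.07, and RPLP2 missed the threshold in each (0.09, −0.17, −0.21 and −0.20). RPS6 in H1650 went from 608 and 627 CPM to 558 and 535, and to 505 and 510 (−0.18 ± 0.07 and −0.28 ± 0.07, edgeR adjusted p = 0.043 and 0.0016). RPS27A, whose product is made as a fusion with ubiquitin, went from 477 and 476 CPM to 367 and 372 with erlotinib and 354 and 360 with osimertinib in H1650 (−0.37 ± 0.07 and −0.42 ± 0.07).

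Before any drug the lines themselves differed. In untreated H1650, 52 members were lower than in PC9 and 7 higher, where 33.8% and 35.8% of all tested genes were, and the median member difference was −0.37 against 0.04 for all tested genes. The lower ones were 31 of 46 large-subunit and 21 of 31 small-subunit members. Of the 2286 other genes of at least 100 CPM, 42.0% were lower and 41.4% higher in untreated H1650, with a median of −0.004. RPL30, whose yeast homologue binds its own transcript, was at 248 and 250 CPM in PC9 and 95.5 and 91.3 in H1650 (−1.41 ± 0.07, edgeR adjusted p = 8e-16). RPS13 was at 286 and 281 CPM against 116 and 116 (−1.29 ± 0.08, 1.3e-14), and RPL10 at 1454 and 1485 CPM against 609 and 609 (−1.27 ± 0.07, 1.9e-15). These levels lay apart by more than 2-fold, as did those of 6 members in all, the others being RPL13, RPS12 and RPL39. The highest in H1650 were RPS20 (274 and 265 CPM in PC9, 367 and 354 in H1650, 0.42 ± 0.07, edgeR adjusted p = 5.1e-06), RPL8 (1446 and 1408 against 1929 and 1755, 0.37 ± 0.07, 6.4e-05) and RPL23 (469 and 497 against 594 and 643, 0.36 ± 0.08, 0.00029). By chromosome, all 4 members on X, RPL10, RPL36A, RPL39 and RPS4X, were lower in H1650 with a median of −0.83. Among the other chromosomes with at least 4 members, those lower were 5 of 5 on chromosome 11, 6 of 7 on 3, 3 of 4 on each of 2, 6 and 9, 7 of 12 on 19, 3 of 5 on 1, 3 of 6 on 17 and 2 of 4 on 12. On chromosome 8, 1 was lower and 2 of 4 were higher, with a median of 0.26. Neither the other genes of these chromosomes nor gene copy number were analysed here.

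**Figure D5:**
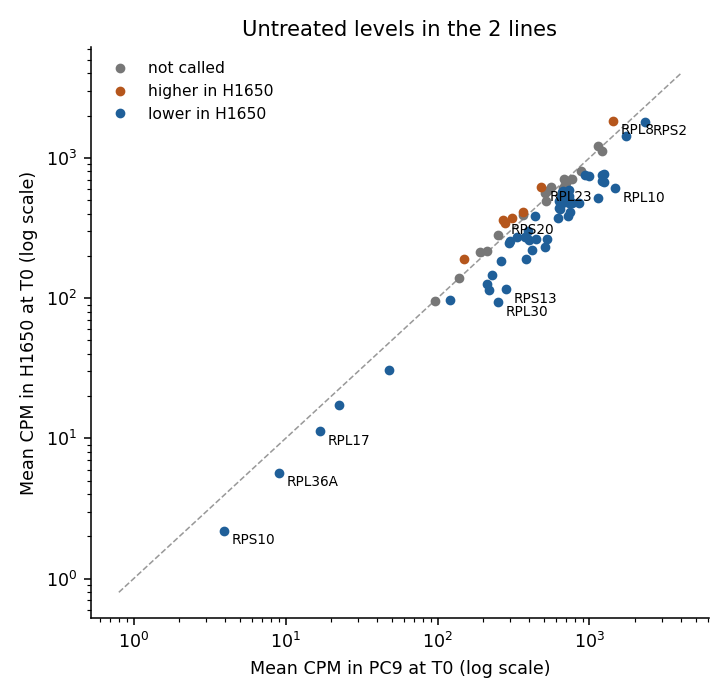
Mean CPM of each member in untreated PC9 (horizontal) and untreated H1650 (vertical), both on log axes, with the diagonal of equality, called lower in H1650 in blue, called higher in orange and uncalled in grey. Most points, 52 of 77 by the test, lie below the diagonal, with RPL30 among the farthest.

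The 5 members of lowest CPM, RPS10, RPL36A, RPL17 and RPL26 among them, had large falls, and their counts need care. RPS10, on the head of the small subunit, had 17 to 91 counts per library and RPL36A, which contacts the exit site for tRNA, 44 to 184. RPS10 was at 3.38 and 4.49 CPM at T0 in PC9, 1.75 and 1.95 with erlotinib and 1.71 and 1.35 with osimertinib, without overlap between T0 and the drugs (−1.08 ± 0.30 and −1.35 ± 0.32, edgeR adjusted p = 0.0029 and 0.00057). RPL36A was at 9.28 and 8.74 CPM at T0 in PC9, 5.82 and 4.61 with erlotinib and 4.21 and 2.47 with osimertinib (−0.79 ± 0.22 and −1.41 ± 0.23, 0.0025 and 7e-06). RPL17 went from 16.4 and 17.3 CPM to 9.99 and 12.4, and to 7.68 and 8.13 (−0.59 ± 0.14 and −1.10 ± 0.15, 0.0006 and 2.4e-07). In the GENCODE 29 annotation all 5 share same-strand exon bases with another protein-coding gene, from 8.40% for RPL36A to 39.4% for RPS10, as do 4 further members, RPL22, RPL36, RPS13 and RPS15A. The median of the mean CPM was 30.6 for these 9 and 537 for the other 68. The read-through genes RPL17-C18orf32, RPL36A-HNRNPH2 and RPS10-NUDT3 had at most 2 counts in any library. How reads in shared exons were assigned is not given in the sources used here, and its part in the low levels was not tested.

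Processed pseudogenes, near-identical copies without introns, are a second place where reads of these genes can be split. The table held 1199 rows named after 76 of the 77 members, of which 548 had counts, and together they took 0.0304 to 0.0896% of all counts, or 0.936 to 1.71% of the counts of members and pseudogenes together. The median share per member was 0.223%, and 7 members exceeded 5%. These were RPS10 (57.1%), RPL41 (16.8%), RPL13 (12.5%), RPL36A (8.92%), RPS2 (8.69%), RPL23A (7.74%) and RPL17 (7.15%), while RPS27 had 0.0158%. For RPS10 the share ran from 15.2 to 84.3% over libraries. With pseudogene counts added to each member, RPS10 changed by −0.72 and −1.19 in PC9 (edgeR adjusted p = 0.0078 and 0.00014), but by 0.66 with erlotinib in H1650 (0.012), where the member alone had −0.64 ± 0.33 (0.14). The values of RPS10 in H1650 are therefore uncertain.

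Paralogues outside the symbol rule, like the lists that follow, were chosen with earlier results of these data known. Of 10 listed, 9 were tested and RPL10L had 0 counts in every library. In PC9 with erlotinib, PC9 with osimertinib, H1650 with erlotinib and H1650 with osimertinib, 1, 1, 0 and 0 rose and 5, 6, 7 and 5 fell. Over all tested genes 32.7, 32.7, 18.0 and 17.8% rose and 29.1, 28.7, 18.5 and 17.9% fell in these comparisons, with medians of 0.07, 0.06, 0.01 and 0, and the lists that follow stand against the same shares. RPS27L, a p53 target and the paralogue of RPS27, was at 21.0 and 24.0 CPM at T0 in PC9, 42.3 and 43.3 with erlotinib and 44.1 and 57.1 with osimertinib, and rose with both (0.93 ± 0.11 and 1.17 ± 0.11, edgeR adjusted p = 2.5e-08 and 3.2e-10). In H1650 it was at 28.9 and 31.1, 28.1 and 30.2, and 31.0 and 32.3 CPM, and the difference between the lines passed the test with both drugs (−0.97 ± 0.15 and −1.09 ± 0.15). RPL39L went from 43.1 and 41.9 CPM to at most 12 with either drug in PC9 (−2.03 ± 0.13 and −2.04 ± 0.13). RPL22L1, which RPL22 can repress, fell in all 4 comparisons. The largest fall was in H1650 with erlotinib, from 12.3 and 14.5 to 6.35 and 6.29 CPM (−1.09 ± 0.13, edgeR adjusted p = 1.6e-07), where RPL22 rose. In H1650 with osimertinib, where RPL22 was not called, RPL22L1 changed by −0.98 ± 0.13. In PC9 it changed by −0.67 ± 0.10 with erlotinib and −0.72 ± 0.10 with osimertinib, and a link between the 2 genes was not tested.

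Other mRNAs with a TOP tract, such as translation factors, were compared with the members through a list of 20 genes, of which 19 were tested and EEF1G was listed at 0 in every library. In the same order of comparisons 10, 7, 2 and 2 rose and 7, 9, 10 and 9 fell, with medians of 0.18, −0.13, −0.20 and −0.16. Osimertinib against erlotinib in PC9 gave 10 that fell and 0 that rose, where 6.41% and 10.1% of all tested genes did. EEF1A1, which delivers aminoacyl-tRNA, was at 8820 and 9550 CPM at T0 in PC9, 16321 and 17826 with erlotinib and 13519 and 15139 with osimertinib. In H1650 it was at 4705 and 4943, 4125 and 4515, and 3996 and 4180 CPM. It rose in PC9 with both drugs (0.89 ± 0.07 and 0.64 ± 0.07), and fell in H1650 with osimertinib (−0.24 ± 0.07, edgeR adjusted p = 0.012), with erlotinib at −0.16 ± 0.07 (0.096). PABPC1, the poly(A)-binding protein, fell in H1650 with both drugs (−0.58 ± 0.07 and −0.66 ± 0.07) and in PC9 with osimertinib (−0.39 ± 0.07).

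Regulators of TOP mRNA translation, a list of 9, gave 1, 0, 1 and 0 that rose and 7, 7, 4 and 4 that fell. EIF4EBP1, the 4E-BP1 repressor that mTOR inactivates, was at 52.6 and 41.7 CPM at T0 in PC9, 83.3 and 74.2 with erlotinib and 17.9 and 16.4 with osimertinib. It stood on opposite sides of T0 with the 2 drugs and differed between them by −2.19 ± 0.13 in PC9 (edgeR adjusted p = 3.4e-13) and −0.88 ± 0.12 in H1650 (5.6e-06). EIF4E, the cap-binding factor, fell in all 4 (−1.60 ± 0.11, −1.74 ± 0.11, −0.46 ± 0.10 and −0.53 ± 0.10), and LARP1, which binds TOP tracts, fell in PC9 with both drugs (−0.50 ± 0.07 and −0.84 ± 0.07), with a called difference from H1650 for each drug (0.59 ± 0.10 and 0.69 ± 0.10). Of 11 chaperones and importins that carry new ribosomal proteins, 0 rose in any of the 4 comparisons and 10, 10, 8 and 8 fell, where 29.1, 28.7, 18.5 and 17.9% of all tested genes fell, with medians of −1.01, −0.998, −0.39 and −0.38. The importin IPO5 was at 359 and 381 CPM at T0 in PC9, 129 and 142 with erlotinib and 101 and 106 with osimertinib (−1.45 ± 0.07 and −1.84 ± 0.08), and GRWD1, which carries RPL3, fell in each comparison too (−1.24, −1.41, −0.57 and −0.67). Among 5 transcription factors tied to these promoters, 2, 2, 1 and 1 rose and 2, 3, 1 and 1 fell. MYC was at 122 and 118 CPM at T0 in PC9, 118 and 118 with erlotinib and 80.4 and 85.5 with osimertinib, and at 70.1 and 60.9, 49.3 and 54.1, and 53.0 and 53.0 CPM in H1650. It fell in each comparison (−0.53 ± 0.08, −0.34 ± 0.08 and −0.30 ± 0.08) except PC9 with erlotinib (−0.02 ± 0.08, edgeR adjusted p = 0.84). NAP1L1 and IPO7 stand in both the TOP and the chaperone list.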

How the data were processed

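Total RNA of 12 libraries was sequenced after polyA selection. The authors deposited 1 table of counts per gene, made with featureCounts in the DolphinNext pipeline, and the submitters' processing notes name the build GRCh38 and DESeq2. The annotation release, aligner, strand setting and treatment of reads with several matches are not given in the sources used here. All 12 count columns were used as deposited. Genes were filtered with filterByExpr, scaled by TMM and fitted in edgeR 4.0.16 (R 4.3.3) with the 6 groups as terms, the quasi-likelihood test and Benjamini-Hochberg adjustment over the 19108 genes tested. The biological coefficient of variation was 0.0656 and 6 residual degrees of freedom were left. Differences between drug responses of the lines are contrasts of the same fit. Scripts were tested on simulated data. Alternatives used DESeq2 1.42.0, other scalings and filters, a replicate block, pseudogene counts, and each library left out. Same-numbered libraries did not deviate together (15 pairs, correlations from −0.067 to 0.095), so the numbers were not taken as pairing. Members were named by a rule on the size of their changes, differences and levels, and by role. The members and all gene lists were chosen with earlier results of these data known. Values of some members that the rule names are not reported here.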

Additional observations from a re-analysis of the deposited data

Results flagged for a closer look

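The drug response differed between the lines, by the test of the difference itself, for the following members. With erlotinib, 56 members had a lower change in H1650 than in PC9, among them RPS27 (−0.74), RPL13A (−0.72) and RPL10 (−0.70). With osimertinib, 3 members were higher and 8 lower in H1650, with RPS27 at −0.87, RPL10 at −0.43 and RPL13A at −0.41. The comparison of osimertinib with erlotinib differed between the lines for 17 members, all higher in H1650, in a contrast added after the data were seen. The H1650 and PC9 libraries also differed before treatment, and the part of those levels in the differences was not tested.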

How the results depend on the processing

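Counts of called members are given below as those that rose and those that fell, and the causes of the changes were not tested. With an adjusted p under 0.01, 22 rose and 6 fell in PC9 with erlotinib, 0 rose in H1650 with erlotinib, the erlotinib response was lower in H1650 for 36, the osimertinib response was higher for 1, osimertinib against erlotinib gave 1 that fell in H1650, and the difference of that comparison between the lines gave 1. With a minimum of 1.5-fold, 2 rose and 5 fell in PC9 with erlotinib, 0 and 7 with osimertinib, 0 and 4 in H1650 with erlotinib, and 7 fell there with osimertinib. The responses then differed for 8 (lower, erlotinib) and for 1 higher and 1 lower (osimertinib), the drugs differed for 0 members in PC9 and 0 in H1650 and this difference between the lines for 0, and 0 were higher and 27 lower in untreated H1650. With upper quartile scaling 6 fell in PC9 with erlotinib, where the median member change was 0.23 and that of all tested genes 0.17, 5 rose with osimertinib, the osimertinib response differed for 1 higher and 16 lower, and the drug-against-drug comparison between the lines for 32. With library totals 6 fell in PC9 with erlotinib, 4 rose and 24 fell in H1650 with erlotinib (median −0.13), 2 rose with osimertinib, the erlotinib and osimertinib responses were higher in H1650 for 1 and 5, 6 fell with osimertinib against erlotinib in H1650, and 12 were higher in untreated H1650. With at least 10 counts in every library 7 fell in PC9 with erlotinib, 5 rose with osimertinib, and the osimertinib response was lower in H1650 for 13. Without a filter 23 rose and 12 fell in PC9 with erlotinib (median 0.077, all genes 0), 1 and 6 were higher in H1650 for the erlotinib and osimertinib responses (the latter median 0.04), 1 rose in H1650 between the drugs, and 46 differed in that comparison between the lines. DESeq2 gave 1 and 32 for the last 2, and RLE factors gave 1 that fell and 11. Pseudogene counts gave 2 that rose in H1650 with erlotinib and 1 higher erlotinib response, and turned RPS10 there to 0.66.

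With the replicate number as a block, 5 rose in PC9 with osimertinib, the erlotinib response was higher in H1650 for 1, the osimertinib response was higher for 6 and lower for 15, 1 rose and 7 fell between the drugs in H1650, 12 were higher in untreated H1650, and 50 differed in the drug-against-drug comparison between the lines. No pair of same-numbered libraries had a correlation of deviations above 0.1, so the labels share only a number.

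Over the 12 fits that leave out 1 library, PC9 with erlotinib gave 19 to 35 that rose and 7 to 11 that fell, PC9 with osimertinib 2 to 6 and 27 to 50, and H1650 with erlotinib 0 to 1 that rose. The erlotinib response was higher in H1650 for 0 to 1, the osimertinib response higher for 1 to 5 and lower for 5 to 16, 34 to 69 fell between the drugs in PC9 and 0 to 2 in H1650, and 1 to 37 differed in this comparison between the lines. The median in PC9 with osimertinib ran from −0.29 without PC9 osimertinib replicate 2 to −0.12 without replicate 1, and was −0.12 with upper quartile scaling. The library left alone in a group was assumed to vary like the other groups. In every such fit 20 of 45 calls were kept in PC9 with erlotinib, 28 of 44 with osimertinib, 30 of 49 and 36 of 54 in H1650, 31 of 56 and 4 of 11 for the differences in response, 28 of 65 between the drugs in PC9, and 48 of 59 in untreated cells. The share of all counts without mitochondrial genes was 4.56, 5.51 and 4.26% in PC9 (T0, erlotinib, osimertinib) and 3.68, 3.54 and 3.31% in H1650. With pseudogenes it was 4.40% in untreated PC9, 5.22% in PC9 with erlotinib and 3.14% in H1650 with osimertinib.

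Single values were followed under all alternatives only for the members named by the rule, in the comparisons they were named for. Of these 2910 values, 2670 kept their side of the threshold, 175 lost the call, 64 gained one and 1 reversed. A change of sign counted as reversed only where the main fit or the alternative called the member. Uncalled values among the 2670 could therefore change sign. Members with few counts, RPS10 and RPL36A foremost, limit what can be said of them, since 17 counts carry a wide counting error.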
